A study of Mus musculus with 14 samples.

Results

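Interferon response genes are the genes that type I interferon switches on, and 34 of them were followed here across mouse thymic progenitors and T cell leukemia. The genes were chosen by symbol, and 32 of the 34 had a probe on the arrays that could be matched by RefSeq accession. These 32 stand among 20972 named genes with a probe. No probe was matched to Mx1 or Mx2, and they are not analysed here. All 32 genes passed the filter on dim probes, together with 27056 features in all, of which 14243 were named genes. Where a gene had more than 1 probe, the probe with the highest mean represented it.

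The cells came from lethally irradiated CD45.1+ wild-type mice that had received C57BL/6 bone marrow. The marrow carried Cre-ERT2, a Cre recombinase that acts after tamoxifen, alone (labelled WT), with floxed Ezh2, with floxed p53, or with both (double-deleted). Every group, WT included, therefore carried Cre-ERT2, whose promoter the labels do not name. They also do not say whether cells of the CD45.1+ host were gated out. Deletion followed 4 weeks after transplantation. CD4-CD8- thymic cells were sorted 3 months after transplantation by CD44 and CD25. DN1 cells carry CD44 alone, DN2 cells carry both, and DN3 cells carry CD25 alone, with 1 array for each of the 4 genotypes and 3 stages. The other 2 arrays hold leukemic cells of the DN2 gate from 2 double-deleted mice, numbered 13 and 19, with early T cell precursor acute lymphoblastic leukemia (ETP-ALL). The labels give no time after transplantation for the leukemias, no age or sex, and do not say whether a sample came from 1 mouse or from several. The treatment protocol names sorted marrow, but sample names and design both name the thymus, and they were followed here. Ezh2 methylates histone H3 as the catalytic subunit of a Polycomb complex, and p53 (the gene Trp53) is a tumour suppressor.

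Type I interferons bind a shared receptor, and the signal reaches a factor complex that holds STAT2 and IRF9 and binds interferon-stimulated response elements in promoters. The genes that follow include nucleic acid sensors, antiviral effectors, feedback regulators and the immunoproteasome. Interferon gamma has a receptor of its own, acts at other elements and induces an overlapping set, the guanylate-binding proteins among them. Thymic cells carry a low interferon response without infection, since medullary epithelium and dendritic cells make interferons in the steady state.

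Promoter sequence shows what some of these genes share that their choice did not use. Of the 34 genes, 25 matched an entry of the RefSeq promoter table (build GRCm38.p6). The 250 bases before each start were searched on both strands for GAAANNGAAA, a short form of the interferon-stimulated response element (the reverse strand reads TTTCNNTTTC). The motif stood in 9 of the 25 genes (36%), against 3.46% of the 27025 genes with an entry and 3.35% of the 11365 such genes tested here. It is not particular to them. The share was 57.9% of interferon genes, 45.5% of interferon gamma and MHC class I genes and 32.6% of further type I response genes. It was 13.3% of receptor and signalling genes and 5.56% of sensing genes. A gamma-activated site motif, TTCNNNGAA, stood in 5 of 25 (20%) against 8.13% of all genes. In the 5 lists just named, in that order, the share with this second motif was 42.1%, 31.8%, 4.35%, 26.7% and 16.7%. A match is a description of letters, and no match says only that these letters are not in the window. The 7 windows shown are of genes that held the motif and passed the test of DN2 against DN1 cells or of the leukemias below. Genes that passed these tests without a match, Irf7 and Ifi44 among them, have no window. Each runs 5′ to 3′ along the gene's strand, from 20 bases before the motif to 20 bases after it or to the last base before the start, and capitals mark the motif.
Ifit1 (chr19:34640765-34640833, plus strand): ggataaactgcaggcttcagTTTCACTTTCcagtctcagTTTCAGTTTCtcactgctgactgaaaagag
Ifit3 (chr19:34583353-34583436, plus strand): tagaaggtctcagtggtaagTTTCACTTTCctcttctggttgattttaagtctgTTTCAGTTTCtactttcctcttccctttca
Oas3 (chr5:120777705-120777754, minus strand): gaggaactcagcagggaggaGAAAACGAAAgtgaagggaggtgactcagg
Isg15 (chr4:156200855-156200916, minus strand): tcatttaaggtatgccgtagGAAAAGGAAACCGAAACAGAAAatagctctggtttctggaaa
Rsad2 (chr12:26456543-26456592, minus strand): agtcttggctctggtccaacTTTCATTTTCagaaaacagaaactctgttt
Gbp2 (chr3:142620584-142620633, plus strand): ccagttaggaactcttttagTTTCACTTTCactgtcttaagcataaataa
Gbp3 (chr3:142559979-142560034, plus strand): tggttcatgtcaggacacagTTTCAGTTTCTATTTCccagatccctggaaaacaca
The motif stood at 2 places in Ifit1, Ifit3 and Gbp3, at 1 in Rsad2 and Gbp2, in these 5 in the reverse orientation, and at 3 overlapping places in Isg15. Gbp3 has 2 entries in the table, and 1 of them held the motif. Stat2 and Oas1a held it as well. Irf7, Xaf1, Cmpk2 and Ifi44, described below, had no match in the window.

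Expression was measured as Cy3 signal intensity, and every level below is a log2 signal relative to the 75th percentile of its array. The 14 arrays lay on 4 slides: slide 1 held the 3 WT arrays and double-deleted DN2 and DN3, slide 2 all Ezh2-deleted and p53-deleted arrays, slide 3 double-deleted DN1, and slide 4 both leukemias. The 75th percentile was 70.47 to 141.2 on slide 2 and 298.6 to 589.1 on the others. The share of probes well above background ran from 40.28% to 50.37%, and 0 were saturated. All 15 markers of T cell precursors were well above background on the 12 non-leukemic arrays. Trp53 was not well above background on the 3 p53-deleted arrays or the leukemia of mouse 13, and from DN1 to DN3 stood at -4.05, -2.59 and -1.104 in double-deleted against -0.02, 0.87 and 1.12 in WT cells. The probe of Ezh2 read 2.56, 3.69 and 3.52 in Ezh2-deleted and 2.23, 4.0 and 4.26 in WT cells, and since the labels do not say whether it lies in the deleted part, it is no check of them. Xist passed background on none but the Ezh2-deleted arrays, with levels of 1.54 to 2.37. The labels give no sex, and any difference in sex between these arrays and the others cannot be told apart from the Ezh2-deleted genotype.

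As a group, the 32 genes stood highest in the leukemia of mouse 19 and in DN1 cells of Ezh2-deleted and p53-deleted marrow, and lowest in DN2 and DN3 cells of WT and double-deleted marrow. Each gene was set against its own mean over the 12 non-leukemic arrays, and the median of the 32 deviations was taken per array. It was -0.24, -0.57 and -0.83 in WT DN1, DN2 and DN3 cells and -0.15, -0.75 and -0.55 in double-deleted cells. It was 1.01, 0.69 and 0.38 in Ezh2-deleted and 0.83, 0.37 and 0.15 in p53-deleted cells, and 0.68 and 1.06 in the leukemias of mice 13 and 19. The same median over all features lay between -0.16 and 0.12 on every array. All 6 arrays of slide 2 and both of slide 4 were thus above 0 and all 6 of slides 1 and 3 below it, so that order follows the slides as well as the genotypes. In the 12 non-leukemic arrays the median correlation of 2 of the genes was 0.68 over 496 pairs, and within slide 2 it was 0.48 (6 arrays) and within slide 1 it was 0.21 (5 arrays). The genes share the arrays and their scaling, so these values describe the arrays alone.

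The levels of the genes that passed a test in at least 1 of 7 comparisons follow by role. Values are in the order DN1, DN2 and DN3 within a genotype, and mouse 13 and 19 for the leukemias. Levels of different genes come from different probes and are not compared.

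Among the signalling genes, Irf7 encodes the factor that amplifies interferon alpha production. Irf7 stood at log2 levels of 0.64, -1.29 and -1.80 in WT and of 0.31, -0.74 and -0.64 in double-deleted cells. Irf7 read 2.21, 0.30 and 0.00 in Ezh2-deleted, 1.99, 1.02 and 0.58 in p53-deleted, and 1.5 and 1.5 in leukemic cells. Irf7 was highest in DN1 cells of all 4 genotypes, and DN1 levels in WT and double-deleted cells lay among the DN2 and DN3 levels of the other 2 genotypes. Both leukemias were above every double-deleted array. Irf9 encodes the DNA-binding subunit of the complex with STAT2. Irf9 stood at log2 levels of 3.45, 2.75 and 2.58 in WT and of 3.55, 2.44 and 2.91 in double-deleted cells. Irf9 read 4.48, 3.77 and 3.66 in Ezh2-deleted, 4.17, 4.04 and 3.76 in p53-deleted, and 4.14 and 4.17 in leukemic cells. All 6 arrays of slide 2 were above all 3 WT arrays, and WT and double-deleted levels overlapped. Usp18 removes ISG15 from proteins and restrains the interferon receptor. Usp18 stood at log2 levels of 2.54, 0.79 and 1.07 in WT and of 3.35, 2.02 and 2.29 in double-deleted cells. Usp18 read 4.32, 3.49 and 3.15 in Ezh2-deleted, 3.6, 3.70 and 2.92 in p53-deleted, and 3.99 and 4.05 in leukemic cells. The Ezh2-deleted, p53-deleted and leukemic arrays were all above the highest WT array, WT DN1. The fourth gene of this role, Stat2, passed no test and ranged from 1.87 to 3.25 over the 14 arrays.

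Of the nucleic acid sensors, Ddx58 encodes RIG-I, a sensor of viral RNA. Ddx58 stood at log2 levels of 3.34, 2.31 and 2.24 in WT and of 3.25, 1.82 and 1.98 in double-deleted cells. Ddx58 read 4.75, 3.48 and 2.95 in Ezh2-deleted, 4.28, 3.89 and 3.01 in p53-deleted, and 3.08 and 2.67 in leukemic cells. The DN2 level was below the DN1 level in every genotype, WT DN1 cells lay above the DN3 cells of slide 2, and the leukemias lay below double-deleted DN1 cells. Ifih1 encodes MDA5, a sensor of long double-stranded RNA. Ifih1 stood at log2 levels of 0.50, 0.64 and 0.91 in WT and of 0.59, 0.67 and 1.08 in double-deleted cells. Ifih1 read 1.88, 2.19 and 2.30 in Ezh2-deleted, 1.87, 1.31 and 1.85 in p53-deleted, and 1.40 and 2.30 in leukemic cells. Every slide 2 array was above all WT and double-deleted arrays. Dhx58 encodes LGP2, a related helicase without a signalling domain. Dhx58 stood at log2 levels of -0.30, -0.19 and -0.59 in WT and of -0.17, -0.76 and -0.53 in double-deleted cells. Dhx58 read 1.03, 0.93 and 0.40 in Ezh2-deleted, 0.52, 0.27 and -0.30 in p53-deleted, and 0.89 and 0.98 in leukemic cells. All Ezh2-deleted arrays were above all WT arrays, while p53-deleted DN3 cells lay within the WT range. Zbp1 binds nucleic acids in the Z form. Zbp1 stood at log2 levels of 2.72, 0.93 and 1.5 in WT and of 2.65, 1.24 and 1.55 in double-deleted cells. Zbp1 read 4.43, 3.22 and 3.04 in Ezh2-deleted, 3.86, 3.39 and 2.74 in p53-deleted, and 3.39 and 4.88 in leukemic cells. DN1 was the highest stage in each genotype, the slide 2 arrays were above all WT arrays, and the leukemia of mouse 19 was above all others. Trim25 encodes a ubiquitin ligase that acts with RIG-I. Trim25 stood at log2 levels of 4.09, 4.78 and 4.92 in WT and of 5.21, 4.84 and 4.99 in double-deleted cells. Trim25 read 5.80, 6.13 and 5.99 in Ezh2-deleted, 5.75, 5.44 and 5.49 in p53-deleted, and 5.36 and 5.45 in leukemic cells. WT DN1 was the lowest array, and all slide 2 arrays were above the 6 WT and double-deleted arrays.

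The IFIT proteins bind foreign RNA and block its translation. Ifit1 stood at log2 levels of -0.65, -2.69 and -2.90 in WT and of -0.28, -1.78 and -1.17 in double-deleted cells. Ifit1 read 0.25, -1.2 and -1.15 in Ezh2-deleted, -0.12, -1.0 and -1.61 in p53-deleted, and 0.68 and 0.56 in leukemic cells. Ifit1 was higher in each DN1 array than in any DN2 array, and both leukemias were above all 12 other arrays. Ifit3 stood at log2 levels of 1.72, -3.47 and -3.77 in WT and of 0.89, -2.48 and -2.35 in double-deleted cells. Ifit3 read 3.30, 0.37 and -0.63 in Ezh2-deleted, 3.25, 1.04 and -0.47 in p53-deleted, and -0.22 and 0.40 in leukemic cells. Ifit3 had the widest range of the group: WT DN2 and DN3 cells, the lowest arrays, were not well above background, and the 4 DN1 arrays were highest within their genotypes. DN1 levels of double-deleted cells lay below the DN2 level of p53-deleted cells, so the stages overlapped. Ifit2 stood at log2 levels of -1.05, -1.46 and -1.39 in WT and of -0.80, -0.50 and -0.97 in double-deleted cells. Ifit2 read 0.32, 0.04 and -0.73 in Ezh2-deleted, 0.34, -0.54 and -0.30 in p53-deleted, and -0.96 and 0.51 in leukemic cells. All slide 2 arrays were above all WT arrays for Ifit2, the leukemia of mouse 13 lay within the double-deleted range, and that of mouse 19 was above all other arrays.

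Of the oligoadenylate synthetases, which make the second messenger of RNase L, Oas3 varied most with stage. Oas3 stood at log2 levels of -0.44, -2.56 and -2.96 in WT and of -1.09, -2.56 and -2.66 in double-deleted cells. Oas3 read 0.59, -1.09 and -1.84 in Ezh2-deleted, 0.65, -0.59 and -1.38 in p53-deleted, and -0.69 and -0.76 in leukemic cells. DN1 was the highest stage of Oas3 within each genotype, and double-deleted DN1 cells lay below p53-deleted DN2 cells, so the stages overlapped. Oas1a stood at log2 levels of 3.75, 2.97 and 1.67 in WT and of 3.93, 2.86 and 2.88 in double-deleted cells. Oas1a read 5.42, 5.04 and 4.21 in Ezh2-deleted, 5.70, 4.65 and 4.87 in p53-deleted, and 4.44 and 5.23 in leukemic cells. Oas1a was above the WT range on all slide 2 arrays and both leukemic ones. Oas2 passed no test and ranged from -0.14 to 2.79. The OAS-like gene Oasl1 represses the translation of Irf7. Oasl1 stood at log2 levels of 2.33, 1.57 and 1.26 in WT and of 2.63, 1.57 and 1.92 in double-deleted cells. Oasl1 read 3.44, 2.55 and 2.55 in Ezh2-deleted, 2.78, 2.29 and 2.27 in p53-deleted, and 4.06 and 3.54 in leukemic cells. Both leukemias were above all 12 other arrays, and p53-deleted DN2 and DN3 cells lay just below WT DN1 cells. Oasl2 stood at log2 levels of 1.26, 1.44 and 0.70 in WT and of 1.75, 1.67 and 2.0 in double-deleted cells. Oasl2 read 2.58, 3.38 and 2.57 in Ezh2-deleted, 2.47, 1.81 and 2.32 in p53-deleted, and 3.68 and 4.07 in leukemic cells. Oasl2 was again highest in the 2 leukemias, and every Ezh2-deleted, p53-deleted and double-deleted array was above every WT array.

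Isg15 is a ubiquitin-like modifier. Isg15 stood at log2 levels of 4.09, 4.43 and 4.10 in WT and of 3.99, 3.45 and 4.18 in double-deleted cells. Isg15 read 5.85, 6.29 and 6.26 in Ezh2-deleted, 5.53, 5.29 and 5.35 in p53-deleted, and 5.59 and 5.71 in leukemic cells. The Ezh2-deleted arrays were above the p53-deleted arrays, which were above all WT arrays. Isg20 encodes an exonuclease. Isg20 stood at log2 levels of 3.57, 3.43 and 2.46 in WT and of 3.16, 2.62 and 3.00 in double-deleted cells. Isg20 read 5.0, 4.86 and 4.71 in Ezh2-deleted, 4.83, 4.4 and 3.67 in p53-deleted, and 5.04 and 4.92 in leukemic cells. All slide 2 arrays and both leukemias were above the WT and double-deleted range. Rsad2 encodes viperin, which makes a chain-terminating nucleotide. Rsad2 stood at log2 levels of -0.18, -0.76 and -0.69 in WT and of -0.23, -1.5 and -0.88 in double-deleted cells. Rsad2 read 1.84, 1.04 and 0.58 in Ezh2-deleted, 1.61, 0.95 and 0.52 in p53-deleted, and 1.63 and 1.07 in leukemic cells. Every slide 2 array and both leukemias lay above every WT and double-deleted array. Cmpk2, the neighbour of Rsad2, encodes a mitochondrial nucleotide kinase. Cmpk2 stood at log2 levels of -0.11, 0.37 and -1.54 in WT and of -1.12, -2.15 and -2.83 in double-deleted cells. Cmpk2 read 2.08, 1.88 and 0.56 in Ezh2-deleted, 1.88, 1.47 and 1.36 in p53-deleted, and -0.12 and -0.22 in leukemic cells. Double-deleted DN2 and DN3 cells were lowest, and double-deleted DN1 cells lay above WT DN3 cells, so WT and double-deleted levels overlapped. The other probe of Cmpk2 read -0.77, -0.30 and -1.69 in WT and -0.58, -1.48 and -2.49 in double-deleted cells.

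Ifi44 is an interferon-induced gene that restrains proliferation and virus growth. Ifi44 stood at log2 levels of -1.21, -1.98 and -1.28 in WT and of -0.23, -1.22 and -0.33 in double-deleted cells. Ifi44 read 0.20, 0.34 and 0.23 in Ezh2-deleted, -0.52, -1.75 and -0.22 in p53-deleted, and 1.94 and 1.95 in leukemic cells. The leukemias stood clear of all other arrays, the Ezh2-deleted arrays were next, and p53-deleted levels overlapped those of WT cells. Ifi35 encodes a cytoplasmic protein that binds other interferon-induced proteins. Ifi35 stood at log2 levels of 2.32, 2.09 and 2.26 in WT and of 2.32, 2.22 and 2.22 in double-deleted cells. Ifi35 read 3.6, 3.24 and 3.30 in Ezh2-deleted, 3.77, 3.50 and 3.00 in p53-deleted, and 3.13 and 3.15 in leukemic cells. The slide 2 arrays and the leukemias lay above a narrow WT and double-deleted range. Ifi27 encodes a small mitochondrial membrane protein. Ifi27 stood at log2 levels of 5.61, 5.97 and 5.66 in WT and of 5.94, 5.78 and 5.95 in double-deleted cells. Ifi27 read 6.48, 7.02 and 7.04 in Ezh2-deleted, 6.47, 6.77 and 6.90 in p53-deleted, and 7.11 and 7.39 in leukemic cells. The leukemias were above all others by a small margin over Ezh2-deleted DN3 cells. Rtp4 encodes a chaperone of cell surface receptors. Rtp4 stood at log2 levels of 3.71, 3.41 and 2.48 in WT and of 3.59, 2.77 and 3.04 in double-deleted cells. Rtp4 read 5.17, 5.23 and 4.62 in Ezh2-deleted, 4.64, 4.18 and 3.52 in p53-deleted, and 4.23 and 4.18 in leukemic cells. Ezh2-deleted arrays were above all WT arrays, and p53-deleted DN3 cells lay within the WT range. Eif2ak2, which encodes the kinase PKR, ranged from -0.86 to 1.53 and Parp14, an ADP-ribosyltransferase, from 1.68 to 3.61, and neither passed a test.

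Xaf1 encodes a pro-apoptotic partner of the inhibitor XIAP, and its 2 probes differed. Xaf1 stood at log2 levels of 2.77, 2.33 and 2.07 in WT and of 3.75, 2.78 and 3.27 in double-deleted cells. Xaf1 read -0.99, -0.62 and -0.80 in Ezh2-deleted, 4.73, 4.38 and 4.19 in p53-deleted, and 5.45 and 4.61 in leukemic cells. The 3 Ezh2-deleted arrays were the lowest of the 14, below every WT array, and the p53-deleted arrays were above every WT array. The other probe of Xaf1 read 2.11, 1.58 and 1.29 in WT and 1.77, 1.06 and 1.66 in double-deleted cells. It read 3.02, 2.85 and 2.69 in Ezh2-deleted, 2.68, 2.28 and 2.10 in p53-deleted, and 3.57 and 2.82 in leukemic cells. On that probe the Ezh2-deleted arrays were above the WT range, not below it. The files used do not say which transcripts each probe reads.

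**Figure D1:**
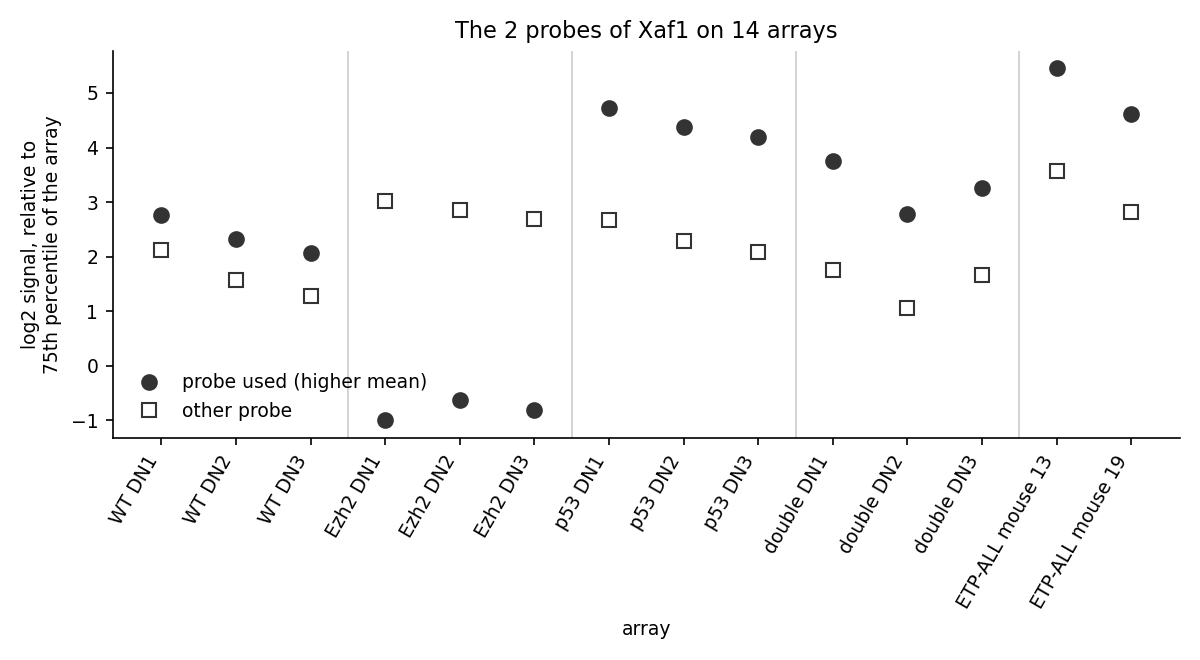
Log2 signal of the 2 probes of Xaf1 (filled circles, the probe that represents the gene; open squares, the other) on the 14 arrays. In Ezh2-deleted cells the first lies at -0.99 to -0.62 against 2.07 to 2.77 in WT cells, and the other at 2.69 to 3.02 against 1.29 to 2.11.

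Gbp2 and Gbp3 encode guanylate-binding proteins, GTPases that attack vacuoles of pathogens. Gbp2 stood at log2 levels of 2.22, 1.76 and 1.59 in WT and of 1.95, 0.84 and 1.13 in double-deleted cells. Gbp2 read 3.69, 3.08 and 2.69 in Ezh2-deleted, 3.36, 3.38 and 2.39 in p53-deleted, and 4.38 and 5.97 in leukemic cells. Gbp2 was highest in the leukemias, next on slide 2 and lowest in double-deleted DN2 cells. Gbp3 stood at log2 levels of 1.23, 1.40 and 0.79 in WT and of 1.06, 0.66 and 0.81 in double-deleted cells. Gbp3 read 2.10, 2.08 and 1.28 in Ezh2-deleted, 2.25, 1.77 and 1.56 in p53-deleted, and 2.98 and 4.49 in leukemic cells. Gbp3 was again highest in the leukemias, with Ezh2-deleted and WT levels overlapping. Psmb8 and Psmb9 encode catalytic subunits of the immunoproteasome, which makes peptides for MHC class I. Psmb8 stood at log2 levels of 5.01, 5.68 and 5.99 in WT and of 5.17, 5.23 and 5.49 in double-deleted cells. Psmb8 read 6.45, 7.11 and 7.04 in Ezh2-deleted, 6.43, 6.23 and 6.03 in p53-deleted, and 5.90 and 6.46 in leukemic cells. For Psmb8 all slide 2 arrays were above all WT arrays, p53-deleted DN3 cells only just. Psmb9 stood at log2 levels of 4.67, 5.44 and 5.18 in WT and of 4.56, 4.95 and 4.77 in double-deleted cells. Psmb9 read 5.83, 6.34 and 6.14 in Ezh2-deleted, 5.79, 5.44 and 5.48 in p53-deleted, and 5.73 and 7.04 in leukemic cells. Psmb9 had its highest level in the leukemia of mouse 19, and p53-deleted DN2 cells were level with WT DN2 cells.

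The first comparison set DN2 against DN1 cells of the same genotypes. Of the 32 genes, 4 fell and 0 rose at an adjusted p under 0.05, where 1.38% of all features were called (1.21% lower and 0.166% higher). Ifit3 fell by 3.43 ± 0.45 in log2 units (± SE, with 4 arrays in each stage, limma adjusted p = 0.0074), which is 10.8-fold, with 3 of 4 DN2 arrays well above background. Oas3 fell by 1.63 ± 0.22 (adjusted p = 0.00881), Ifit1 fell by 1.47 ± 0.26 (adjusted p = 0.0327) and Irf7 fell by 1.46 ± 0.27 (adjusted p = 0.0347). The next genes were Zbp1, with a log2 difference of -1.22 ± 0.24 (adjusted p = 0.0507), and Ddx58, with -1.03 ± 0.23 (adjusted p = 0.0736), neither called. The 4 called genes were lower in DN2 in 4 of 4 genotypes, and Ifit1 alone did not overlap between stages, as 1.79% of all features did not in this direction.

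Over the 32 genes the median log2 difference from DN1 to DN2 was -0.40, against 0.13 for all features, and 6 genes had a difference above 0, against 61% of all features. In 13 genes (40.6%) DN2 was below DN1 in all 4 genotypes, against 9.32% of all features: Irf7, Irf9, Ddx58, Zbp1, Ifit1, Ifit3, Oas1a, Oas3, Oasl1, Isg20, Rsad2, Ifi35 and Parp14. Within genotypes the median was -0.27 in WT (19 of 32 lower), -0.32 in Ezh2-deleted (21 lower), -0.46 in p53-deleted (29 lower) and -0.71 in double-deleted cells (27 lower). In double-deleted cells the step also crosses from slide 3 to slide 1, while in the other genotypes both stages were on 1 slide. By role, the medians were -1.47 for the 3 IFIT genes, -0.81 for the 4 signalling genes and -0.80 for the 5 OAS genes. They were -0.21 for the 5 sensors, -0.31 for the 11 other effectors and 0.06 for the 4 GBP and immunoproteasome genes.

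The count of 4 moved with the samples. It was 1 within slide 1, 0 within slide 2 and 0 without slide 2, and from 1 to 8 when single arrays were left out (1 without WT DN2, 2 without WT DN1, 2 without any of the 3 Ezh2-deleted arrays, p53-deleted DN3 or double-deleted DN2, 7 without p53-deleted DN2 and 8 without p53-deleted DN1). The median stayed at -0.41 within slide 1 and -0.34 within slide 2.

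**Figure D2:**
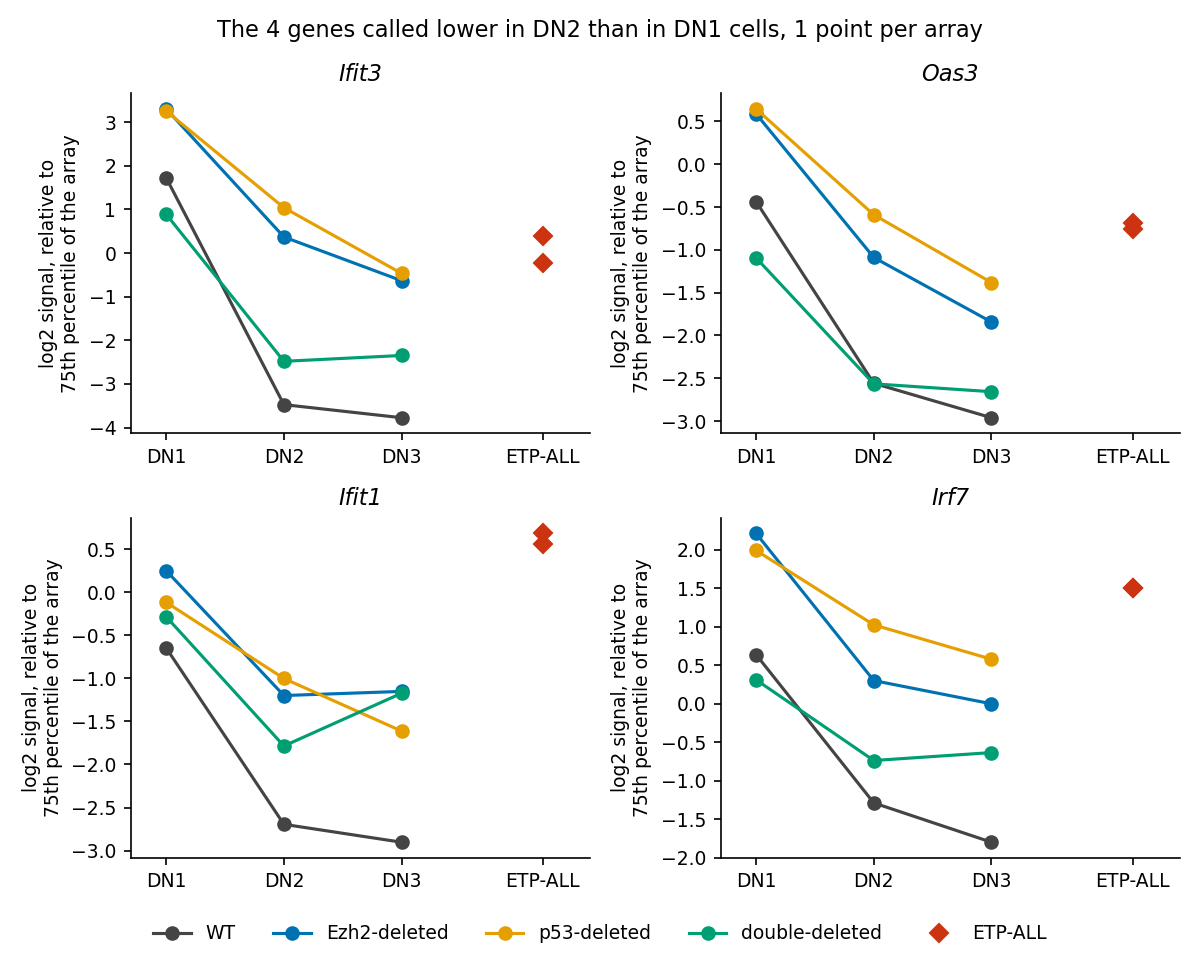
Log2 signal of Ifit3, Oas3, Ifit1 and Irf7 at DN1, DN2 and DN3 (x axis), 1 point per array, with a line per genotype and diamonds for the 2 leukemias. Each gene drops from DN1 to DN2 in all 4 genotypes, and Ifit3 has the longest drop, by 3.43 ± 0.45 (SE) in the fit.

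Markers of other cell types moved at the same step. Of 12 NK and innate lymphoid markers, 8 fell, with a median log2 difference of -5.41. Their summed linear signal, relative to the array's 75th percentile, was 549.3 to 1094 on the DN1 arrays and 119.3 to 575.5 on the DN2 arrays. All 12 were well above background on every DN1 array, and between 4 and 12 on the DN2 arrays. Further, 3 of 7 double-positive thymocyte markers, 2 of 7 B lineage markers and 2 of 11 myeloid markers fell. Of 11 plasmacytoid dendritic cell markers 0 were called, with a median of -0.05, and of 8 conventional dendritic cell markers 0 were called, with a median of -1.89 and summed signals of 34.90 to 302.4 in DN1 and 13.21 to 155.9 in DN2 cells. The part of these cells in the fall of the interferon response genes was not tested, and in sorted populations fewer cells of a type and less RNA per cell cannot be told apart.

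Other genes of the pathway were counted from lists chosen alongside the members. Of 9 interferon ligands tested and 17 receptor and signalling genes, 0 were called between DN1 and DN2 with limma, and Ifnb1 passed background on 0 arrays. Ifng, not called, had a log2 difference of -3.398 ± 0.745 (limma adjusted p = 0.071), with 4 of 4 arrays of each stage well above background. Its DN1 and DN2 levels were 6.54 and 3.91 in WT and 5.34 and 0.81 in Ezh2-deleted cells. They were 4.56 and 1.525 in p53-deleted and 3.03 and -0.37 in double-deleted cells. Of 20 nucleic acid sensing genes 1 fell, Ikbke, by 1.34 ± 0.26. Of 48 further type I response genes 6 fell and 0 rose: Ifit3b by 3.97 ± 0.62, Slfn1 by 3.47 ± 0.51, Ly6c1 by 2.48 ± 0.39, Phf11b by 2.21 ± 0.39, Phf11d by 1.83 ± 0.33 and Ifi204 by 1.49 ± 0.22. Slfn1 was well above background on 1 of 4 DN2 arrays and Ifit3b on 2 of 4. Of 30 interferon gamma and MHC class I genes 1 fell, Nlrc5, by 1.42 ± 0.27.

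Between DN2 and DN3 hardly any feature passed the test. Of the 32 genes 0 were called by limma, where 0.0222% of all features were, and 3 had an unadjusted p under 0.05 (6.34% of all features did), namely Cmpk2 with a log2 difference of -1.0 ± 0.31, Ifi44 with 0.75 ± 0.27 and Oas3 with -0.51 ± 0.22 (SE, 4 arrays per stage). The largest difference after Cmpk2 and Ifi44 was that of Ifit3, -0.67 ± 0.45. The median was -0.15 against 0.03 for all features. It was -0.23 in WT (22 of 32 genes lower in DN3), -0.19 in Ezh2-deleted (25 lower) and -0.21 in p53-deleted cells (21 lower), and 0.26 in double-deleted cells (4 lower and 28 higher). Whether the double-deleted step differs from the others was not tested, since each genotype and stage has 1 array. Oas3 and Cmpk2 were lower in DN3 in all 4 genotypes (6.25% of the genes, against 7.49% of all features), and Ifih1 was higher in all 4, as were 8.45% of all features.

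Against WT cells, Ezh2-deleted cells had higher levels of most of the genes. Of the 32, 26 were called higher and 1, Xaf1, lower, where 34.1% of all features were called (15.6% higher and 18.5% lower). The median log2 difference was 1.30 against 0.10 for all features. Ifit3 had 2.85 ± 0.51 (SE, 3 arrays per genotype, limma adjusted p = 0.00339), and it was well above background on 1 of the 3 WT arrays. Usp18 followed with 2.19 ± 0.33, Oas1a with 2.09 ± 0.32, Cmpk2 with 1.94 ± 0.36 and Isg15 with 1.92 ± 0.26. Zbp1 (1.84 ± 0.28), Rtp4 (1.81 ± 0.27), Ifi44 (1.75 ± 0.31), Oasl2 (1.71 ± 0.32), Isg20 (1.70 ± 0.29), Rsad2 (1.70 ± 0.26) and Irf7 (1.66 ± 0.31) came next. The other 14 genes called higher had log2 differences between 1.0 (Psmb9) and 1.44 (Ifih1). Stat2, Oas2, Eif2ak2, Parp14 and Gbp3 did not pass the test, with 0.16 to 0.68. In 21 genes all 3 Ezh2-deleted arrays were above all 3 WT arrays, as in 17.5% of all features. Xaf1 fell by 3.2 ± 0.27 (adjusted p = 5.46e-05) on the probe used, while its other probe had a difference of mean levels of 1.19. For Ddx58, a rise of 1.09 ± 0.26 on the probe used stood beside a difference of -0.19 on its other probe.

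In p53-deleted cells too, most of the genes were higher than in the same WT arrays. Of the 32 genes, 24 were called higher and 0 lower, where 35.8% of all features were called (15.3% higher and 20.5% lower). The median log2 difference was 1.08 against 0.05. Ifit3, well above background on 1 of the 3 WT arrays, had 3.12 ± 0.51, Oas1a 2.28 ± 0.32, Xaf1 2.04 ± 0.27, Irf7 2.02 ± 0.31, Cmpk2 2.0 ± 0.36 and Usp18 1.94 ± 0.33 (SE, 3 arrays per genotype). Zbp1 (1.61 ± 0.28), Rsad2 (1.57 ± 0.26) and Oas3 (1.54 ± 0.25) came next, and the other 15 called genes lay between 0.72 (Gbp3 and Oasl1) and 1.2 (Ifi35). On their other probes, Xaf1 had a difference of mean levels of 0.69 and Ddx58, called at 1.098 ± 0.26, one of -0.53. Adjusted p-values of the 24 ran from 0.000593 for Xaf1 to 0.0424 for Gbp3. The 8 genes not called were Stat2, Dhx58, Oas2, Eif2ak2, Ifi44, Parp14, Psmb8 and Psmb9, with -0.19 to 0.90. In 19 genes all p53-deleted arrays were above all WT arrays, as in 20.1% of all features. Both comparisons use the same 3 WT arrays, so they are not independent of each other.

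Genotype and slide cannot be told apart in either comparison, since all WT arrays were on slide 1 and all Ezh2-deleted and p53-deleted arrays on slide 2. Only the Ezh2-deleted arrays had Xist above background, so any difference in sex cannot be told apart from that genotype either. The slide 2 arrays also had the lowest signal. With another background correction (normexp), the median of the 32 genes was 0.95 for Ezh2-deleted and 0.83 for p53-deleted cells, and that of all features rose to 0.36 and 0.28.

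Of 48 further type I response genes, 22 were called higher and 3 lower in Ezh2-deleted cells, and 24 higher and 4 lower in p53-deleted cells. Ifit3b (2.78 ± 0.72 and 3.40 ± 0.72), Slfn8 (2.28 ± 0.25 and 1.88 ± 0.25) and Tdrd7 (2.03 ± 0.38 and 1.67 ± 0.38) were higher in both, with Ifit3b well above background on 1 of the 3 WT arrays, and Sp110 was lower in both (-1.09 ± 0.20 and -0.95 ± 0.20). Of 17 receptor and signalling genes 4 were higher in each, among them Jak2 with 1.18 ± 0.36 and 1.27 ± 0.36, and Irf1 was lower in Ezh2-deleted cells (-1.07 ± 0.34). Of 20 sensing genes 8 and 6 were higher and 1, Tlr7, was lower in each, with -2.60 ± 0.28 and -2.94 ± 0.28. Of 30 interferon gamma and MHC class I genes 9 and 9 were higher and 2 and 3 lower, with Tgtp2 at 2.38 ± 0.29 and 1.82 ± 0.29.

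Of 9 interferon genes tested, 5 were called lower in Ezh2-deleted and 6 in p53-deleted cells, and 0 higher. Most were above background on WT arrays and on no array of the deletion compared, so their differences are bounds. Ifna1 was at least 2.12-fold lower in Ezh2-deleted and at least 2.22-fold lower in p53-deleted cells. In double-deleted cells Ifna1, Ifna14 and Ifnab were above background on all 3 arrays, Ifna2 and Ifna5 on 2 and Ifna12 on 0. All Ezh2-deleted and p53-deleted arrays were on slide 2, which had the lowest signal. Ifng was well above background in all 6 p53-deleted and WT arrays and fell by 3.26 ± 0.86 in p53-deleted cells. Other markers moved as well. Of 11 plasmacytoid dendritic cell markers, 1 was higher and 2 lower in Ezh2-deleted and 1 higher and 4 lower in p53-deleted cells, with Siglech lower in both (-1.95 ± 0.23 and -1.55 ± 0.23) and Bst2, itself a response gene, higher in both. Of 15 T cell precursor markers 6 and 4 were higher and 0 lower. Their summed signal was 1599 to 2782 in Ezh2-deleted and 1572 to 1838 in p53-deleted cells against 752.1 to 1544 in WT cells, and its part in the higher response genes was not tested. The summed signal of NK markers was 575.5 to 1094 in Ezh2-deleted against 119.3 to 549.3 in WT cells, and 168.2 to 700.2 in p53-deleted cells. That of 8 B lineage markers was 23.02 to 49.42 in Ezh2-deleted and 4.990 to 5.977 in p53-deleted against 10.81 to 13.65 in WT cells. That of 11 myeloid markers was 20.07 to 104.0 and 17.30 to 25.05 against 45.14 to 111.1. Of 8 conventional dendritic cell markers tested 0 were called in either deletion. Their median log2 difference was 1.58 in Ezh2-deleted (7 above 0) and 1.45 in p53-deleted cells (6 above 0). The summed signal of that list was 10.3 to 302.4 in Ezh2-deleted and 14.6 to 155.9 in p53-deleted against 8.28 to 55.4 in WT cells. Of the double-positive thymocyte markers Cd4, Cd8a and Cd8b1 were called lower and Themis higher in Ezh2-deleted cells, and Cd5 and Themis higher in p53-deleted cells. The part of these markers in the result was not tested either.

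Double-deleted cells, most of them on the WT slide, differed from WT cells in few of the genes. Of the 32 genes 1 was called, Cmpk2, which fell by 1.60 ± 0.36 (SE, 3 arrays per genotype, limma adjusted p = 0.0347), where 7.41% of all features were called and 3.8% were called lower. The median was 0.04 against -0.14 for all features, and 17 genes had a difference above 0 (53.1%, against 41.9% of all features). Usp18 had a log2 difference of 1.09 ± 0.33 and Ifit1 of 1.0 ± 0.30, neither called (adjusted p = 0.0744 and 0.076). Ifit2, Oasl2 and Xaf1 (9.38% of the genes) were higher on all 3 double-deleted arrays than on all WT arrays, against 9.17% of all features, and Parp14 was lower on all 3, as were 23.4%. On its other probe Xaf1 had a difference of mean levels of -0.17, and the arrays overlapped. Cmpk2 had a difference of mean levels of -0.60 on its other probe. Within slide 1 its log2 difference was -1.90 ± 0.39 (adjusted p = 0.142), and the call was also lost without WT DN1, WT DN2, Ezh2-deleted DN2, Ezh2-deleted DN3 or any of the 3 double-deleted arrays. The count was 2 without p53-deleted DN2. Within slide 1 the median of the 32 genes was 0.05. Of the other pathway lists, Slfn8 (1.1 ± 0.25) and Tdrd7 (1.79 ± 0.38) were higher, and Ifng (-3.50 ± 0.86) and Ifnar2 (-1.11 ± 0.27), a chain of the type I receptor, were lower.

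Ezh2-deleted and p53-deleted cells, which shared slide 2, differed in 1 of the 32 genes. Xist was above background in the Ezh2-deleted cells alone, so genotype and any difference in sex cannot be told apart here. Xaf1 was lower in Ezh2-deleted cells by a log2 difference of -5.24 ± 0.27 (SE, 3 arrays per genotype, limma adjusted p = 4.61e-05), where 3.92% of all features were called and 1.69% were called lower. On its other probe the difference of mean levels was 0.50, in the opposite direction. The median of the 32 was 0.14 against 0.07 for all features. Ifi44 had 1.09 ± 0.31 (adjusted p = 0.0926) and Rtp4 0.89 ± 0.27 (adjusted p = 0.107), and neither was called. In 7 genes (21.9%), Isg15, Oasl2, Ifi44, Ifih1, Trim25, Psmb8 and Psmb9, all Ezh2-deleted arrays were above all p53-deleted arrays, against 10.9% of all features. Of the other pathway lists, Dtx3l alone was called, at 1.59 ± 0.32.

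**Figure D3:**
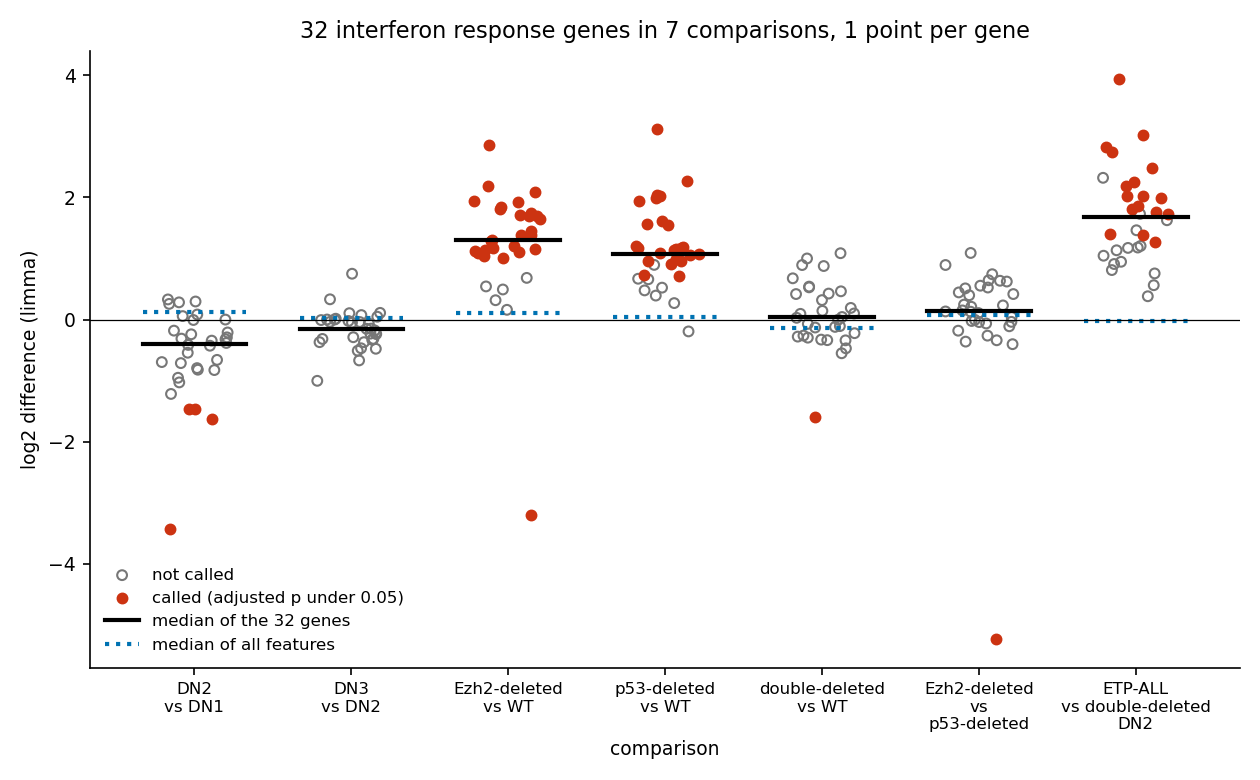
Log2 difference of each of the 32 genes (y axis, limma) in the 7 comparisons (x axis); filled points have an adjusted p under 0.05, black bars mark the median of the 32 genes and dotted bars that of all features. The median of the genes lies above that of all features against WT in Ezh2-deleted and p53-deleted cells (1.30 and 1.08) and in the leukemias (1.68), and at 0.04 in double-deleted cells, while Xaf1 is far below it in Ezh2-deleted cells.

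The leukemias were set against double-deleted DN2 cells, the cells of the same genotype and gate, and 17 of the 32 genes were called, all higher, where 2.42% of all features were called and 1.44% were called higher. The median log2 difference was 1.68 against -0.02 for all features, and all 32 genes had a difference above 0, against 49% of all features. Gbp2 rose by 3.94 ± 0.48 (SE, 2 leukemias against the fitted double-deleted DN2 level, limma adjusted p = 0.00395), or 15.4-fold. Ifi44 rose by 3.03 ± 0.36 (adjusted p = 0.00375) and Gbp3 by 2.83 ± 0.44 (adjusted p = 0.0122). Zbp1 (2.74 ± 0.47), Rsad2 (2.48 ± 0.33), Irf7 (2.25 ± 0.36), Ifit1 (2.18 ± 0.35), Isg20 (2.03 ± 0.34) and Oasl1 (2.03 ± 0.27) followed. The other called genes were Oasl2, Xaf1, Isg15, Oas3, Usp18, Irf9, Dhx58 and Ifi27, with 1.28 to 1.99. Both probes of Xaf1 were higher in the leukemias, by 2.25 and 2.14 between mean levels.

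The genes not called included Ifit3 with 2.32 ± 0.62 (adjusted p = 0.0903) and Ifit2 with 0.56 ± 0.47. By role the medians were 2.18 for the IFIT genes, 2.15 for the GBP and immunoproteasome genes, 1.76 for the OAS genes, 1.63 for the other effectors, 1.57 for the signalling genes and 1.18 for the sensors. In 29 genes (90.6%) both leukemias were above all 3 double-deleted arrays, against 20.8% of all features, the exceptions being Ifit2, Ifit3 and Ddx58. In 8 genes (25%) both were above all 12 non-leukemic arrays, against 3.5% of all features: Ifit1, Oasl1, Oasl2, Ifi44, Ifi27, Gbp2, Gbp3 and Eif2ak2.

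Against other genotypes the leukemias were not uniformly high. Array by array, the median log2 difference of the 32 genes from Ezh2-deleted DN1 cells was -0.29 for mouse 13 and -0.06 for mouse 19, and from p53-deleted DN1 cells -0.01 and 0.18. From WT DN1 cells it was 1.04 and 1.35, and from double-deleted DN1 cells 0.98 and 1.17. The leukemias were on slide 4 and no other group was, so slide and leukemia cannot be told apart.

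The count of 17 rests on few arrays. It was 1 (Ifi44) without double-deleted DN2, 11 without double-deleted DN1 and 10 without the leukemia of mouse 13, and 0 when the leukemias were set against the 3 double-deleted arrays with stage left out, a fit with few arrays that called 131 features in all. The median of the 32 genes was 1.45 in that last fit.

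**Figure D4:**
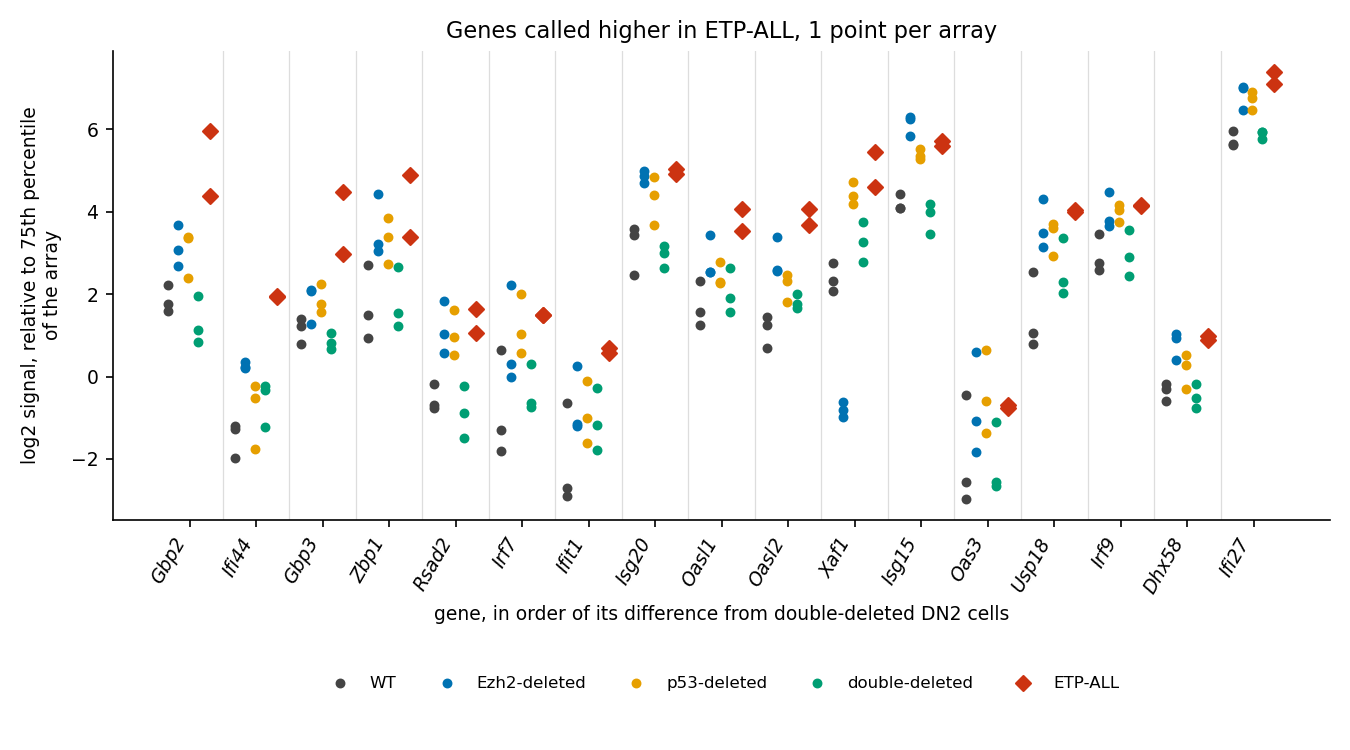
Log2 signal of the 17 genes called higher in ETP-ALL than in double-deleted DN2 cells (x axis, in order of the difference), 1 point per array, coloured by genotype, with diamonds for the 2 leukemias. The diamonds lie above the 3 double-deleted points for each gene shown, and above all 12 other arrays for Gbp2, Ifi44, Gbp3, Ifit1, Oasl1, Oasl2 and Ifi27.

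Among related genes, 12 of 30 interferon gamma and MHC class I genes and 9 of 48 further type I response genes were higher in the leukemias and 0 lower, with list medians of 1.59 and 1.12. The largest of the interferon gamma list were the GTPases Irgm2 (3.32 ± 0.37), Gbp5 (3.08 ± 0.65) and Igtp (2.74 ± 0.37), and Nlrc5, the activator of MHC class I genes, rose by 2.25 ± 0.38. Further called members were Tgtp2, Irf8, Irgm1, Iigp1, Tgtp1, Psmb10, H2-K1 and H2-T23, with 1.43 to 2.73. On the type I list Ly6c1 (5.42 ± 0.52) and Ly6a (4.77 ± 0.31), surface proteins of lymphoid cells, rose, and Ifi47, Tor3a, Parp10, Trim30a, Trim21 and Lgals3bp rose by 1.31 to 2.30. Slfn1 was at least 12.3-fold higher, since it was not well above background in double-deleted DN2 cells.

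Of 9 interferon ligands and 20 sensing genes 0 were called with limma in the leukemias, and the list medians were 0.15 and 0.01. Ifng had a log2 difference of -3.74 ± 1.22, not called, and was well above background in 1 of the 2 leukemias. It stood at -2.11 in mouse 13 and -5.15 in mouse 19, against -0.37 in double-deleted DN2 cells. Ifna14, an interferon alpha gene, stood at 1.72 in the leukemia of mouse 13, at -2.93 in that of mouse 19 and between -3.98 and -1.90 on the other 12 arrays, and its difference of 2.35 ± 1.1 was not called. Of 17 receptor and signalling genes 1 was called, Socs1, a feedback inhibitor of JAK kinases, with -5.83 ± 1.18, and it was well above background in 1 of the 2 leukemias. The markers of other cells were mostly not called: 0 of 12 NK markers, 0 of 11 myeloid, 0 of 7 B lineage and 0 of 8 conventional dendritic cell markers, with 1 of 11 plasmacytoid dendritic cell markers (Irf8, also on the interferon gamma list) and 1 of 4 stromal markers (Epcam) higher. Of T lineage markers, Ptcra (-6.29 ± 1.22, well above background in 1 of the 2 leukemias) was lower, and Cd8a was at least 2.19-fold lower. The summed signal of the conventional dendritic cell markers was 33.53 and 88.62 in the leukemias against 16.44 to 34.90 in double-deleted cells, and Itgax, Zbtb46, Xcr1 and Clec9a were not well above background in either leukemia. The summed signal of the NK markers was 885.2 and 896.9 against 218.0 to 663.8, while Klrd1, Klrb1c, Ncr1, Klra7, Klra8 and Klre1 were not well above background in either leukemia.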

How the data were processed

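Total RNA (20 ng) of each sample was labelled with Cy3 and hybridised to 1-colour Agilent mouse arrays, 1 array per sample, in 14 samples. The deposited scanner files hold signal intensity from Feature Extraction 10.7.1.1, background-corrected by that software, per the file headers. The authors' own value table holds a linear signal with a 75th percentile of 1.002 to 1.004 and a median of 0.065 to 0.105 per array. It was scaled per array and not centred, and the labels do not state its normalization.

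From the deposited files, the log2 of the processed signal was taken minus the log2 of the array's 75th percentile. Control spots and outlier spots were left out, and spots of a probe were averaged. The files used hold no gene names, so probes were named by RefSeq accession through the GRCm38.p6 gene table. Of 55681 probes 27656 had 1 symbol and 28025 none. The probe with the highest mean represented a gene. Features well above background on at least 2 arrays were kept. The array grid was built on mm9, and no probe coordinates are printed.

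An additive model of genotype and stage was fitted with limma 3.58.1 in R 4.3.3 over the 12 non-leukemic arrays, and with a leukemia term over all 14 for the leukemias. It assumes that stage acts alike in all genotypes, which 1 array per genotype and stage cannot test. P-values were adjusted by Benjamini-Hochberg over 27056 features, with a threshold of 0.05. The labels do not say that samples were separate animals, so the error measures the spread between these arrays, and their number limits the precision. The procedure was tested on simulated data. Tables used Python 3.11.15.

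Members, pathway lists and marker lists were chosen with earlier results of these data known. Levels on every array are given for members called in any comparison or among the 3 with the largest difference in any, and ranges for the others. Of the other pathway lists, called genes may be named. Alternatives were other normalizations, background corrections, filters, probe rules, the value table, slide blocks, single slides and each array left out.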

Additional observations from a re-analysis of the deposited data

Results flagged for a closer look

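No array stood apart from its group in 99 tests of groups of 4 or more arrays (chance flags about 1 in 20 such groups). With 1 array for each genotype and stage, such groups pool genotypes or stages, whose differences widen the spread. The absence of flags therefore says little about any single array. In 6 genes, every array of 1 deletion lay to one side of WT at its stage and every array of another deletion to the opposite side. Of the 32 genes that is 18.8%, and 11.5% of all features did so. The difference between Ezh2-deleted and p53-deleted cells was tested, and it was called for Xaf1 (-5.24 ± 0.27, SE) on the probe used. On the other probe of Xaf1 the difference of mean levels was 0.502. The differences of either from double-deleted cells were not tested. Values are mean log2 differences from the same WT arrays. Xaf1 stood at -3.197 in Ezh2-deleted, 2.043 in p53-deleted and 0.877 in double-deleted cells. Rsad2 stood at 1.697 in Ezh2-deleted, 1.568 in p53-deleted and -0.328 in double-deleted cells. Gbp2 stood at 1.294, 1.187 and -0.552 in the same order. Ddx58 stood at 1.094, 1.098 and -0.279, Cmpk2 at 1.935, 1.999 and -1.602, and Psmb9 at 1.003, 0.478 and -0.34. Xaf1, Ddx58 and Cmpk2 each had another probe. Between mean levels and in the same order, that probe gave 1.193, 0.691 and -0.166 for Xaf1. For Ddx58 it gave -0.185, -0.528 and -0.146, and for Cmpk2 1.125, 1.325 and -0.598. Setting Ezh2-deleted or p53-deleted cells against double-deleted cells also sets slide 2 against slides 1 and 3, and deletion and slide cannot be told apart there.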

How the results depend on the processing

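Over 74 gene results and 1555 alternative values, 1383 kept their direction and side of the threshold, 172 kept their direction but lost the call, and 0 reversed. No alternative used a gene's other probe alone, and some called results reversed on that probe. Between mean levels, Xaf1 had 1.193 on it in Ezh2-deleted against WT and 0.502 in Ezh2-deleted against p53-deleted cells. Ddx58 had -0.185 on it in Ezh2-deleted and -0.528 in p53-deleted against WT cells. The cause of each change was not tested. For DN2 against DN1, 4 genes were called in the report. The number was 2 with the percentile over probes detected on all arrays, 7 with normexp, 2 with no filter on dim probes, 1 within slide 1, 0 within slide 2, 8 without the p53-deleted arrays and 0 without slide 2. Leaving out 1 array gave 1 to 8. For double-deleted against WT, 1 gene was called. It was 0 with the percentile over detected probes, 5 with normexp (4 higher), 0 with the mean of all probes of a gene, 0 with slide as a fixed block and 0 within slide 1, and 0 to 2 with 1 array left out. The median of the genes there ran from -0.06 to 0.14. For the leukemias, 17 genes became 0 against the 3 double-deleted arrays with stage left out, and 1 to 17 with 1 array left out. Leaving out 1 array gave 25 to 27 genes for Ezh2-deleted and 18 to 24 for p53-deleted against WT, 0 for DN3 against DN2, and 1 (Xaf1) for Ezh2-deleted against p53-deleted cells.

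Counts over all features moved further. With 1 array left out they ran from 141 to 2417 for DN2 against DN1 (373 in the report's fit), from 395 to 2025 for double-deleted against WT (2005), from 275 to 1071 for Ezh2-deleted against p53-deleted (1060) and from 99 to 834 for the leukemias (654). With normexp they were 9899 for double-deleted against WT, 337 for Ezh2-deleted against p53-deleted and 1545 for the leukemias. DN2 against DN1 called 5 within slide 2 and 3023 without p53-deleted arrays. Double-deleted against WT called 1162 with the percentile over detected probes, 552 with the slide as a fixed block and 363 within slide 1, and Ezh2-deleted against p53-deleted called 90 within slide 2. The leukemias called 131 with stage left out and 1183 with slide as a random block. The median of the genes from DN2 to DN3 was 0.03 within slide 1 and -0.27 within slide 2. No paired analysis was possible because each group holds 1 array and replicate numbers therefore pair nothing. The fit itself matches arrays by stage and genotype. Probes near background, such as Ifit3 in WT DN2 and DN3 cells, limit how low a level can be read.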
